A study of Mus musculus with 16 samples.

Results

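Thrombospondin 1 (TSP-1), encoded by Thbs1, was followed through every cell type of this series, as 1 gene of the 32286 features in each of 16 single-cell RNA libraries. Thbs1 was chosen by its measured RNA level, which was low in BM neutrophils of vehicle-treated tumor-bearing mice and high again under IACS-70654, as seen in these same libraries. The levels in CD45+ BM neutrophils are therefore given as a description, with no test, whereas other BM cell types and the separately sorted c-Kit+ cells were tested. The 16 libraries held 73176 cells after filtering and 9199 Thbs1 UMIs, where a UMI (unique molecular identifier) stands for 1 captured RNA molecule.

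The study transplanted the 2208L line, a neutrophil-enriched model of triple-negative breast cancer, into BALB/c mice. The 4 tumor libraries came from mice given vehicle, IACS-70654, anti-PD1 or the combination of IACS-70654 with anti-PD1, with 1 library per condition and hence no replicate. IACS-70654 is an inhibitor of the bromodomain of CBP/P300, a pair of related histone acetyltransferases that act as transcriptional coactivators, and anti-PD1 is an immune checkpoint antibody. The 12 BM libraries came from non–tumor-bearing mice, which the labels call controls and which are named WT here, and from mice with a 2208L tumor that received vehicle or IACS-70654. Treatment lasted 7 days by the series record, while the text on the BM experiment has 6 days. Of the BM libraries, 6 held CD45+ Ter119- cells and 6 held Lin- c-Kit+ cells (HSPCs), with 2 replicates per group. Each library pooled cells of 3 mice, and the 2 replicates of a BM group may be parts of 1 pool, so p-values measure only the spread between these libraries. The labels give no age of the animals. 2208L is 1 tumor line, so the vehicle group stands for mice carrying this line only.

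TSP-1 is a large secreted glycoprotein of the extracellular matrix that forms trimers. It is stored in platelet α-granules and is made by megakaryocytes, fibroblasts, endothelial cells and phagocytes. It binds CD47 and CD36 on cell surfaces, is taken up through LRP1 with calreticulin, converts latent TGF-β to its active form and inhibits angiogenesis. Neutrophil elastase and cathepsin G cleave it. In the reference annotation the gene (ENSMUSG00000040152) lies on the plus strand of chr2:118111876-118127133 in mm10, spans 15258 bases and has 2 annotated transcripts with at most 22 exons. A noncoding gene on the opposite strand, Gm29233, overlaps it and had 0 UMIs in the cells of named types of each sort.

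The total UMI count per library ranged from 15590289 to 68415534, and the median UMI count per kept cell ran from 4113 to 6596.5 in CD45+ libraries, 6712 to 9512 in c-Kit+ libraries and 4724 to 6332 in tumors. Levels are given as CPM, the Thbs1 UMIs per 1000000 UMIs summed over the cells of a type in 1 library. They are also given as the share of cells with at least 1 Thbs1 UMI after thinning, since deeper cells show more positives at the same level. Each cell was thinned at random to 1000 UMIs (CD45+), 3000 UMIs (c-Kit+) or 2000 UMIs (tumors). Cells with fewer UMIs than this were left out of the shares, which thus cover the deeper cells of a type. Cell types are clusters named by marker gene lists, with Thbs1 itself kept out of the clustering. No barcode was shared between libraries of a sort. Intervals on single libraries cover counting error only.

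Over all kept CD45+ cells, Thbs1 stood at 40.4 and 40.0 CPM in WT, at 3.75 and 4.82 CPM in vehicle and at 40.7 and 39.6 CPM in IACS-70654. The vehicle pair lay below both other pairs, and the WT and IACS-70654 pairs overlapped. Neutrophils carried most of this RNA in WT, where they held 80.2% and 75.9% of the Thbs1 UMIs, and in IACS-70654, where they held 89.2% and 89.6%. In vehicle they held 42.6% and 45.5%, and monocytes held 54.3% and 48.5%.

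Within CD45+ BM neutrophils of all stages, Thbs1 was at 52.7 and 51.2 CPM in WT, 1.94 and 2.60 CPM in vehicle and 47.9 and 47.0 CPM in IACS-70654. These values rest on 876 and 826 UMIs, 55 and 90 UMIs, and 1470 and 1839 UMIs. The vehicle libraries stood far below the other 4, with no overlap. The mean was 51.9 ± 1.04 CPM in WT (SD, n = 2), 2.27 ± 0.470 CPM in vehicle and 47.4 ± 0.639 CPM in IACS-70654. The vehicle mean was 22.9-fold lower than WT (log2 ratio -4.52), and the IACS-70654 mean was 20.9-fold higher than vehicle (log2 ratio 4.39). IACS-70654 lay slightly below WT, with a log2 ratio of -0.13.

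The share of neutrophils with a Thbs1 UMI at 1000 UMIs per cell was 5.51% and 5.15% in WT, 0.134% and 0.224% in vehicle and 4.30% and 3.91% with IACS-70654. Without thinning it was 15.2% and 15.3%, 1.11% and 1.33%, and 17.7% and 18.0%. The median depth of these cells was 3846 and 3929 UMIs in WT, 5071 and 5122.5 in vehicle and 5958.5 and 5928 with IACS-70654, and the order of WT and IACS-70654 changed between the thinned and the full counts. B-lineage cells, which are not known as a source of TSP-1, had shares from 0% to 0.694% at 1000 UMIs over the 5 CD45+ libraries with enough of them, at median depths of 2995.5 to 6285 UMIs. The upper end of that range came from a WT library. In CPM, the B-lineage cells of the vehicle libraries stood at 1.39 and 1.19, from 1 UMI each, below the 1.94 and 2.60 CPM of the neutrophils beside them but with counting intervals that include both. How much of the vehicle neutrophil level was background could not be told at this depth, so the folds given against vehicle are not exact sizes of a change.

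Positive cells also held fewer Thbs1 UMIs in vehicle. A neutrophil with any Thbs1 UMI held on average 1.84 and 1.86 of them in WT, 1.10 and 1.25 in vehicle and 2.06 and 2.01 with IACS-70654. Cells with more than 5 Thbs1 UMIs numbered 13 of 3130 and 9 of 2911 in WT and 35 of 4030 and 38 of 5088 in IACS-70654. In vehicle there were 0 such cells among 4503 and 0 among 5422, and the highest count in 1 cell was 4.

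**Figure D1:**
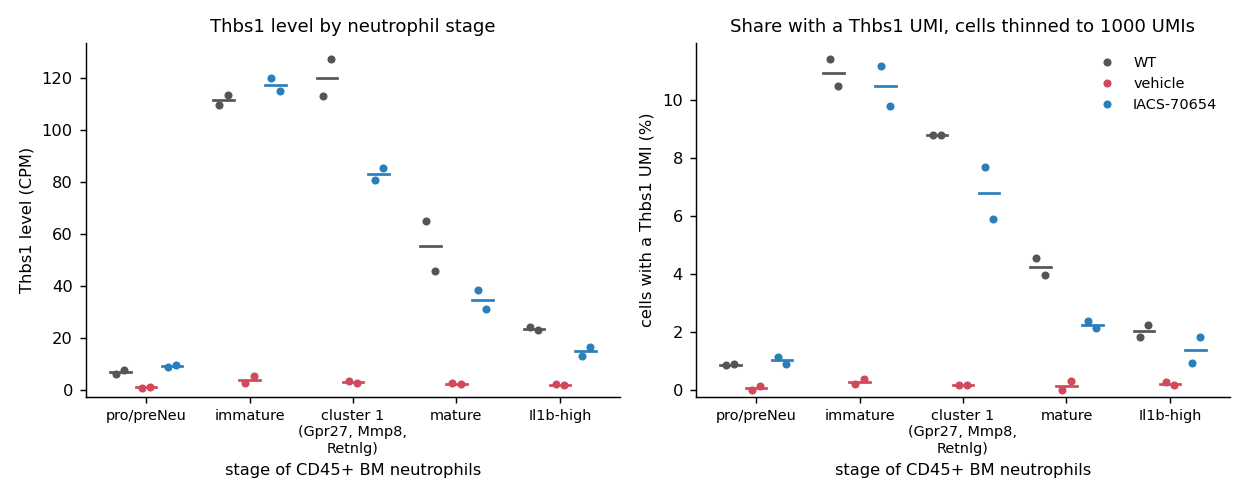
Thbs1 by neutrophil stage in CD45+ BM, as CPM (left) and as the percent of cells with a Thbs1 UMI after thinning each cell to 1000 UMIs (right). Points are the 2 replicate libraries of each group and bars their mean; in every stage both vehicle points lie below all WT and IACS-70654 points, and the immature stage is among the highest, at 109.6 and 114 CPM in WT.

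Neutrophils mature in the BM from dividing pro/preNeu cells that make azurophil granule proteins, through immature cells that make lactoferrin and other specific granule proteins, to mature cells with the chemokine receptor CXCR2. Sub-clustering gave these 3 stages, a stage with high Il1b, and a cluster led by Gpr27, Mmp8 and Retnlg that met no naming rule and is called cluster 1. Genes were scaled within each library for this step, which draws the stages of different libraries together, so the sizes of the stages are not compared between groups. Thbs1 was low in pro/preNeu, highest in immature cells and cluster 1, and lower again in mature and Il1b-high cells.

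In pro/preNeu, Thbs1 was at 6.03 and 7.53 CPM in WT, 0.611 and 1.08 CPM in vehicle and 8.90 and 9.58 CPM in IACS-70654. In immature neutrophils it was at 109.6 and 114 CPM in WT, 2.55 and 5.06 CPM in vehicle and 120.1 and 115 CPM in IACS-70654. In both stages the IACS-70654 libraries lay above both WT libraries by a small step, and vehicle lay far below. The WT values of pro/preNeu overlapped those of the B-lineage cells in the same libraries, at 5.38 and 8.39 CPM, so RNA from other cells cannot be told apart from a low level there. The vehicle mean was 8.04-fold lower than WT in pro/preNeu and 29.3-fold lower in immature cells. The IACS-70654 mean was 11-fold and 30.9-fold higher than vehicle in the same stages.

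In cluster 1, Thbs1 was at 113 and 127 CPM in WT, 3.28 and 2.58 CPM in vehicle and 80.7 and 85.6 CPM in IACS-70654. Mature neutrophils had 64.9 and 45.6 CPM in WT, 2.57 and 1.97 CPM in vehicle and 38.4 and 30.9 CPM in IACS-70654. The Il1b-high cells had 24.0 and 22.9 CPM, 2.27 and 1.58 CPM, and 13.1 and 16.3 CPM. In these 3 sets of cells, of which cluster 1 has no assigned stage, both IACS-70654 libraries lay between the vehicle and the WT libraries. The log2 ratios of IACS-70654 to WT were -0.53, -0.67 and -0.67. The corresponding ratio was 0.08 in immature cells and 0.45 in pro/preNeu. Not every part of the mature cells followed this order. Their cluster led by Ifit1 and Rsad2 averaged 40.1 ± 5.31 CPM with IACS-70654 and 37.6 ± 4.55 CPM in WT (SD, n = 2). The vehicle-to-WT ratios on the log2 scale were -5.36, -4.61 and -3.60 in cluster 1, mature and Il1b-high cells. Those of IACS-70654 to vehicle were 4.83, 3.93 and 2.93. With stages set per cell by marker score, the Il1b-high values were -4.79 for vehicle to WT, 3.69 for IACS-70654 to vehicle and -1.10 for IACS-70654 to WT, and the mature value of IACS-70654 to vehicle was 3.37.

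When all CD45+ cells were clustered with no scaling by library, several clusters of later neutrophils were held mostly by a single group. A mature cluster led by Retnlg and Mmp8 was shared by WT (645 and 616 cells) and vehicle (701 and 852). It held 83 and 98 cells of IACS-70654. One led by Ifit1 and Rsad2 held cells of all groups (78 and 67, 253 and 277, 197 and 260). A mature cluster led by Gm16556 and Slc7a11 held 679 and 641 cells of WT, 91 and 84 of vehicle and 7 and 8 of IACS-70654. One led by Acod1 and Sycp2 held 139 and 119, 1108 and 1364, and 47 and 55 cells, and one led by Stfa3 and Stfa2 held 26 and 26, 62 and 74, and 1078 and 1317 cells. An Il1b-high cluster led by Ifitm1 and Wfdc17 held 23 and 14, 61 and 89, and 962 and 1189 cells. Another Il1b-high cluster, led by Csf1 and Il1b, held 66 and 71, 288 and 312, and 44 and 63 cells, most of them in vehicle. The values of mature and Il1b-high neutrophils thus compare cells that differ in more than Thbs1. The immature cluster led by Ltf and Fmnl2 held cells of all groups (693 and 636, 627 and 748, 626 and 815), and Thbs1 in it was at 108 and 117 CPM in WT, 1.93 and 2.26 CPM in vehicle and 111 and 109 CPM in IACS-70654. The vehicle libraries were again far below the other 4 there.

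By thinned share, too, vehicle was lowest in each stage. In immature cells they were 11.4% and 10.5% in WT, 0.180% and 0.376% in vehicle and 11.2% and 9.79% with IACS-70654. Mature cells had 4.54% and 3.95%, then 0% (0 of 845 cells, exact 95% upper bound 0.436%) and 0.281%, then 2.36% and 2.13%, and Il1b-high cells had 1.80% and 2.23%, 0.254% and 0.144%, and 0.907% and 1.83%. By share but not by CPM, the IACS-70654 and WT ranges overlapped in immature and in Il1b-high cells.

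Immature cells held 54.8% and 55.6% of the neutrophil Thbs1 UMIs in WT, 40.0% and 57.8% in vehicle and 60.2% and 60.5% with IACS-70654. Of the 3 clusters of immature cells, that led by Ltf, Ly6g and Olfm4 was the highest, at a mean of 150.5 CPM in WT, 5.11 CPM in vehicle and 150.1 CPM in IACS-70654. The largest, led by Fmnl2 and Zmpste24, averaged 95.4 CPM, 2.51 CPM and 105 CPM. The third, led by Zmpste24 and Orm1, had only 15 to 44 cells per library, with 62.9 and 67.8 CPM in WT, 2.79 and 9.83 CPM in vehicle and 70.1 and 46.6 CPM in IACS-70654. A mature cluster led by the interferon-response genes Ifit1 and Rsad2 averaged 37.6 CPM in WT, 2.37 CPM in vehicle and 40.1 CPM in IACS-70654. The 2 clusters led by azurophil granule genes such as Elane, Mpo and Prtn3 were low in all groups, at 2.65 ± 1.55 CPM in WT (SD, n = 2), 1.73 ± 1.53 CPM in vehicle and 4.75 ± 0.777 CPM in IACS-70654 for the first, where WT and vehicle overlapped. The second had 1 and 0 UMIs in WT, 0 and 1 UMIs in vehicle and 13 and 16 UMIs in IACS-70654, and a difference of vehicle from WT was not detectable there at this depth.

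Markers of other cell types did not move in the order of Thbs1, while the immediate early genes, which also respond to tissue handling, stood apart in vehicle as Thbs1 did. Those 23 genes summed over all neutrophils to 2314 to 2389 CPM in WT, 2689 to 2690 CPM in vehicle and 2396 to 2421 CPM in IACS-70654, highest where Thbs1 was lowest, and their part in the Thbs1 values was not tested. Over all neutrophils the summed platelet list was at 7.13 to 8.54 CPM in WT, 5.32 to 6.50 CPM in vehicle and 5.11 to 5.18 CPM in IACS-70654. The summed monocyte list was at 333 to 358 CPM, 297 to 302 CPM and 200 to 201 CPM, lowest in IACS-70654. The neutrophil list, with all 12 markers detected, summed to 323833 to 330594 CPM, 361226 to 362058 CPM and 282226 to 283984 CPM, highest in vehicle.

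**Figure D2:**
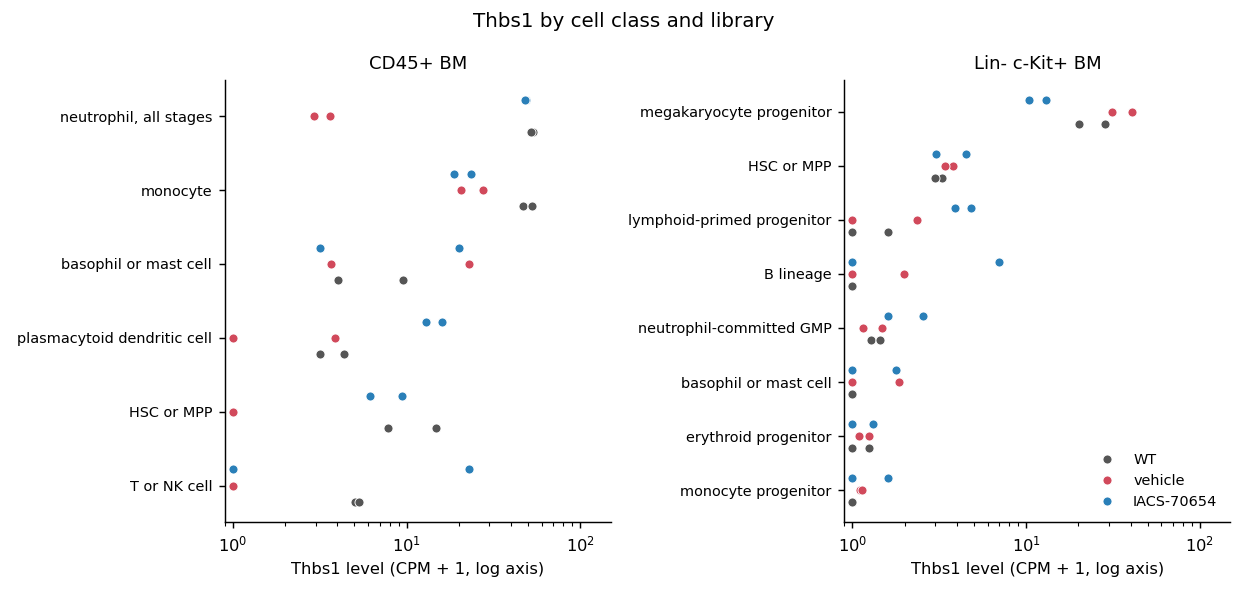
Thbs1 in each BM cell class with at least 20 cells in every library, for CD45+ cells (left) and Lin- c-Kit+ cells (right), as CPM + 1 on a log axis. Points are the 2 replicates per group; in WT neutrophils and monocytes lead the CD45+ panel, and megakaryocyte progenitors lead the c-Kit+ panel, where the other classes reach at most 5.97 CPM.

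Among the other CD45+ classes, monocytes were the main source. Monocytes and the macrophages they give rise to are known to release TSP-1. Thbs1 was at 46.1 and 51.5 CPM in WT, 19.5 and 26.5 CPM in vehicle and 22.4 and 17.9 CPM in IACS-70654, from 70 to 221 UMIs per library. The 2 WT libraries stood above the other 4, and the vehicle and IACS-70654 pairs overlapped. Thbs1 fell in vehicle relative to WT by 1.09 on the log2 scale (SE 0.15, adjusted p = 1.23e-05 after Benjamini-Hochberg adjustment over all genes, quasi-likelihood test of edgeR), a 2.14-fold decrease in the fit. DESeq2 gave no adjusted p for Thbs1 in this comparison. A call needed an adjusted p under 0.01 together with a log2 change larger than 0.5 either way, and 0.932% of the genes tested in monocytes were called in this comparison. Thbs1 was called in monocytes of IACS-70654 against WT too, where it fell by 1.30 on the log2 scale (SE 0.13, adjusted p = 9.83e-09, edgeR) among 5.78% of genes called.

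Between IACS-70654 and vehicle the log2 difference in monocytes was -0.20 (SE 0.16, adjusted p = 0.449, edgeR), with 5.85% of genes called. The approximate 95% interval of the difference, not adjusted for the number of genes tested, ran from -0.51 to 0.11. Whether monocytes and neutrophils of the same libraries differ in this step was not tested, since Thbs1 was chosen for its neutrophil values. At 1000 UMIs, 5.33% and 6.61% of WT monocytes, 1.81% and 3.47% of vehicle monocytes and 2.50% and 3.21% of IACS-70654 monocytes held a Thbs1 UMI. These shares exceeded the highest B-lineage share of 0.694% in all 6 libraries.

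The monocytes formed 2 clusters. One was led by S100a4, Fn1 and Ccr2. It held 58.2% and 63.4% of the class in WT, 55.1% and 55.7% in vehicle and 52.6% and 51.6% with IACS-70654. The part of these shares in the class values was not tested. Thbs1 in this cluster was at 103 and 98.2 CPM in WT, 41.8 and 55.6 CPM in vehicle and 38.6 and 35.7 CPM in IACS-70654. Within it the fall in vehicle was -1.05 (adjusted p = 0.000218, edgeR) and that of IACS-70654 against WT -1.46 (adjusted p = 5.38e-08, edgeR). The other, deeper cluster had 10.8 and 17.0 CPM, 6.98 and 10.3 CPM, and 13 and 8.0 CPM, and its changes of -0.70 and -0.43 were not called (adjusted p = 0.395 and 0.365, edgeR). The summed neutrophil list also moved in this class, and whether this RNA came from neutrophils was not tested. It was at 15806 to 18367 CPM in WT, 20342 to 25720 CPM in vehicle and 25917 to 31847 CPM in IACS-70654. In monocytes with at most 2% of their UMIs from that list, Thbs1 was at 44.2 and 52.3 CPM, 20.3 and 25.7 CPM, and 21.5 and 19.9 CPM, and the log2 change of vehicle against WT was again -1.09 (adjusted p = 2.54e-06, edgeR). The monocyte list itself summed to 7436 to 7634 CPM in WT, 7506 to 7646 CPM in vehicle and 5417 to 5659 CPM in IACS-70654. The macrophage list summed to 943 to 1054 CPM, 1043 to 1105 CPM and 565 to 628 CPM. The part of these shifts in the Thbs1 values was not tested.

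**Figure D3:**
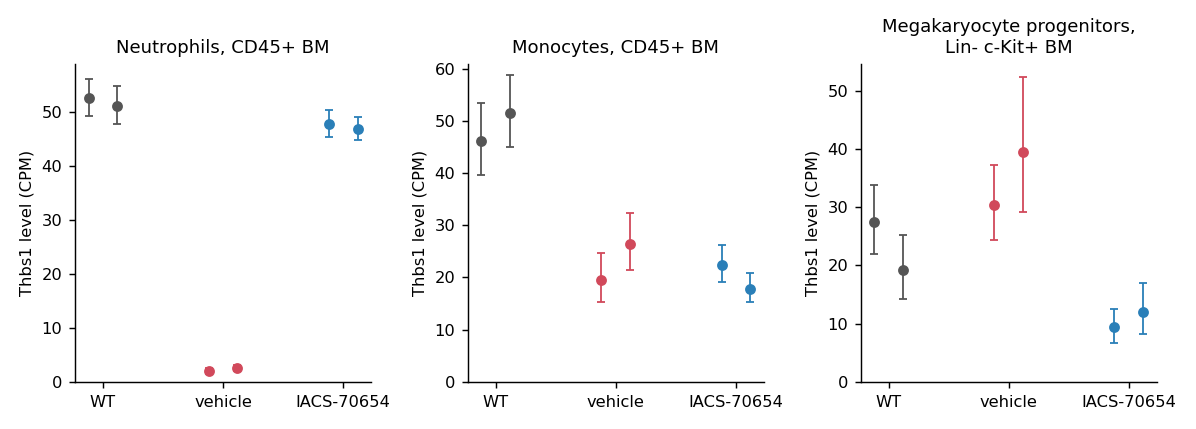
Thbs1 CPM per library, with 95% Poisson intervals, in CD45+ neutrophils, CD45+ monocytes and c-Kit+ megakaryocyte progenitors. Neutrophils are low in vehicle only, monocytes are low in vehicle and IACS-70654, and megakaryocyte progenitors are low in IACS-70654 only.

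Plasmacytoid dendritic cells, which make type I interferon, held few Thbs1 UMIs. They had 3.34 and 2.16 CPM in WT (4 and 3 UMIs), 2.90 and 0 CPM in vehicle (2 and 0 UMIs, where a count of 0 allows up to 4.17 CPM) and 12 and 15 CPM in IACS-70654 (12 and 18 UMIs). Both IACS-70654 libraries were above the other 4. The difference did not pass the threshold against vehicle (adjusted p = 0.0327, edgeR, 3.21% of genes called) or against WT (adjusted p = 0.027, edgeR, 4.26% called). Nor did vehicle against WT (adjusted p = 0.945, edgeR, 0.0522% called). Thbs1 passed the filter on low counts through the IACS-70654 libraries, where it was high, so these tests lend no support to a difference. Summed over replicates, the ratio of IACS-70654 to vehicle was 9.63, with a counting interval from 2.44 to 83.1. The 12 UMIs of IACS-70654 replicate 1 came from 2 cells. The neutrophil list in this class summed to 13556 to 20338 CPM in WT, 25754 to 33162 CPM in vehicle and 24804 to 36065 CPM in IACS-70654.

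The remaining CD45+ classes had at most 23 Thbs1 UMIs in a library, and their values are given without a call. HSCs or MPPs had 13.9 and 6.81 CPM in WT, 0 and 0 CPM in vehicle and 5.17 and 8.39 CPM in IACS-70654. The vehicle counts of 0 allow up to 9.26 and 5.68 CPM, and WT rests on 8 and 4 UMIs. The difference was not tested. Basophils or mast cells had 8.58 and 3.04 CPM, 2.69 and 22.0 CPM, and 2.18 and 19.0 CPM, so that replicates of 1 group differed more than the groups. T or NK cells had 0 to 5 UMIs in each library.

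By order of level in WT CD45+ BM, immature neutrophils and cluster 1 came first and overlapped each other, followed by mature neutrophils and monocytes, which also overlapped. Il1b-high neutrophils came next, and pro/preNeu, HSCs or MPPs and B-lineage cells overlapped below them. In vehicle, monocytes stood above every neutrophil stage. In IACS-70654 the order was again immature neutrophils, cluster 1, mature neutrophils and monocytes, with no overlap among these 4.

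Lin- c-Kit+ cells are the progenitors upstream of neutrophils and of all other blood lineages. They held 549 Thbs1 UMIs in 28155 cells, against 6208 UMIs in 31191 CD45+ cells. Megakaryocyte progenitors held 86.9% and 84.7% of the c-Kit+ Thbs1 UMIs in WT, 71.1% and 82.8% in vehicle and 30.3% and 50.8% with IACS-70654. HSCs or MPPs held 36.6% in IACS-70654 replicate 1, more than the megakaryocyte progenitors there, and 8.08% to 27.0% in the other 5 libraries. They also made up 34.1% and 34.6% of the c-Kit+ cells with IACS-70654, against 13.5% to 16.5% in the other 4 libraries.

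In megakaryocyte progenitors, the precursors of platelets, Thbs1 was at 27.4 and 19.2 CPM in WT (86 and 50 UMIs), 30.3 and 39.5 CPM in vehicle (91 and 48 UMIs) and 9.35 and 12 CPM in IACS-70654 (43 and 32 UMIs). Both IACS-70654 libraries were the lowest, and vehicle was above WT without overlap. Thbs1 fell with IACS-70654 against vehicle by 1.74 on the log2 scale (SE 0.21, adjusted p = 5.95e-10, edgeR), a 3.35-fold decrease in the fit, where 8.01% of the genes tested were called. It fell by 1.29 against WT (SE 0.21, adjusted p = 1.73e-06, edgeR, 7.29% called). The difference of vehicle to WT was 0.45 (SE 0.19, adjusted p = 0.189, edgeR, 1.29% called), which is not called. Its approximate 95% interval ran from 0.085 to 0.82. That interval is not adjusted for the number of genes tested, so it does not establish a rise. The direction under IACS-70654 was opposite to that of the neutrophil values, and the difference between the classes was not tested.

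At 3000 UMIs per cell, 6.82% and 3.94% of WT, 6.98% and 12.2% of vehicle and 2.59% and 3.31% of IACS-70654 megakaryocyte progenitors held a Thbs1 UMI. Erythroid progenitors, the nearest lineage, had shares of 0% to 0.330% at median depths of 12833 to 14049 UMIs, below all 6 values. The class was made of 2 clusters, and the cycling one made up 29.8% and 29.1% of it in WT, 50.4% and 45.3% in vehicle and 32.3% and 34.3% with IACS-70654. In both clusters IACS-70654 was lowest. The other cluster had 31.7 and 19.9 CPM in WT, 40.5 and 51.0 CPM in vehicle and 10.4 and 15.9 CPM in IACS-70654, and the cycling one had 21.1 and 18.0, 22.5 and 29.4, and 8.04 and 7.33 CPM. The log2 change of IACS-70654 against vehicle was -1.87 in the noncycling cluster (adjusted p = 3.76e-08, edgeR) and -1.72 in the cycling one (adjusted p = 9.55e-05, edgeR).

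Markers of the class followed the order of Thbs1 in an unthinned share of cells but not in CPM. Without thinning, 56.9% and 57.1% of megakaryocyte progenitors in WT held a UMI of the platelet genes Pf4 or Ppbp. The share was 69.6% and 64.2% in vehicle and 46.2% and 49.6% under IACS-70654, the same order as Thbs1. Deeper cells show more positives, and the part of depth in this order was not tested. The summed megakaryocyte list was at 4221 to 4402 CPM in WT, 5853 to 6184 CPM in vehicle and 4374 to 4387 CPM in IACS-70654, and the platelet list at 3878 to 4088, 5450 to 5732 and 4207 to 4236 CPM. Both lists were thus as high in IACS-70654 as in WT, where Thbs1 was not. The immediate early genes, which also respond to tissue handling, summed to 2124 to 2132 CPM in WT, 1285 to 1296 CPM in vehicle and 1833 to 1884 CPM in IACS-70654. The part of these shifts in the Thbs1 values of the class was not tested.

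HSCs or MPPs of the c-Kit+ sort had 2.28 and 1.98 CPM in WT, 2.80 and 2.42 CPM in vehicle and 3.54 and 2.03 CPM in IACS-70654, with overlap of IACS-70654 and both others. None of the 3 comparisons was called by edgeR (log2 differences 0.26, 0.15 and 0.41, adjusted p = 0.883, 0.834 and 0.589), where 0.987%, 5.35% and 4.75% of genes were. Within them, a cluster led by the stem cell genes Mecom and Hlf was higher, at 5.50 to 12.1 CPM over the 6 libraries. Neutrophil-committed GMPs, the source of the neutrophils above, had 0.272 and 0.441 CPM in WT, 0.482 and 0.159 CPM in vehicle and 1.55 and 0.610 CPM in IACS-70654, from 1 to 22 UMIs per library. In WT and vehicle these values reached at most 0.482 CPM, against at most 0.319 CPM in erythroid progenitors.

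**Figure D4:**
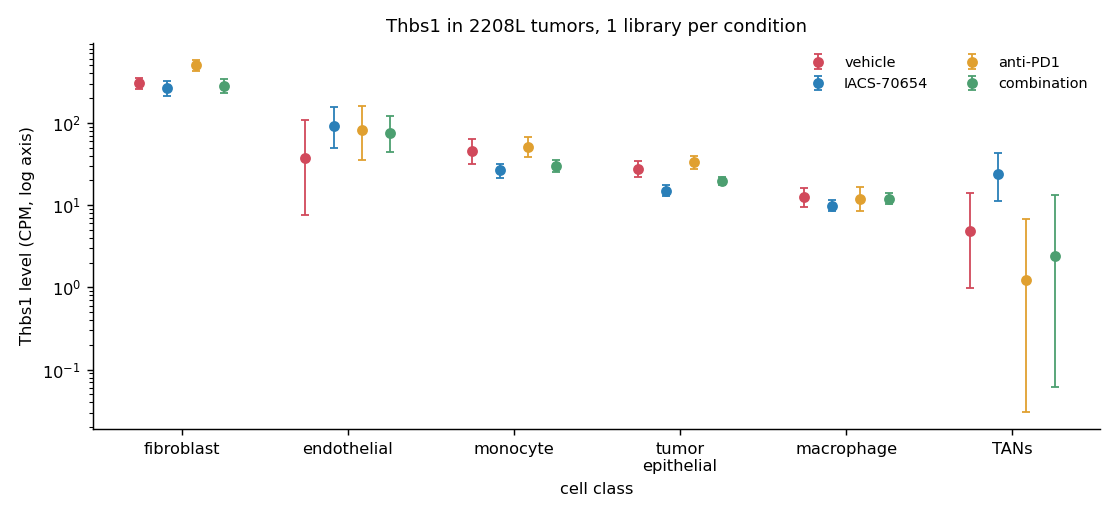
Thbs1 CPM on a log axis in 6 cell classes of the 2208L tumors under 4 conditions, 1 library each, with 95% Poisson intervals. Fibroblasts are highest in every condition, at 265 to 499 CPM, and TANs hold 1 to 10 UMIs per library.

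In 2208L tumors Thbs1 was highest in fibroblasts, cells that build the tumor matrix. They had 303 CPM with vehicle, 265 with IACS-70654, 499 with anti-PD1 and 283 with the combination, from 34 to 46 cells and 96 to 180 UMIs. At 2000 UMIs per cell, 37.0%, 37.5%, 38.2% and 41.5% of them held a Thbs1 UMI, against 0.935% to 2.46% of T or NK cells, whose median depths were 2059 to 4376.5 UMIs. The CPM differed more between conditions than these shares did. The ratio to vehicle was 0.875 for IACS-70654 (95% counting interval 0.670 to 1.14), 1.65 for anti-PD1 (1.32 to 2.06) and 0.937 for the combination (0.727 to 1.20). Without cells removed as doublets, the log2 ratio of anti-PD1 to vehicle was 1.31 instead of 0.72. The libraries were trimmed unequally. Vehicle lost the 13 cells marked by the doublet caller, and anti-PD1 lost 104 cells by top score, where the caller marked 7. The fibroblasts of the combination library also held 2716 CPM of the tumor epithelial list, against 102 to 405 CPM in the other 3.

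Endothelial cells, a further known source of TSP-1, had 37.1, 92.3, 82.2 and 75.7 CPM, but these rest on 3, 13, 8 and 17 UMIs from 11 to 40 cells, and the counting intervals of their ratios to vehicle include 1.

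Fibroblasts made up 2.33%, 0.886%, 1.66% and 0.829% of tumor cells and held 32.7%, 16.3%, 31.6% and 13.6% of Thbs1 UMIs with vehicle, IACS-70654, anti-PD1 and the combination. Tumor epithelial cells held 16.9%, 31.2%, 21.6% and 43.2%, and macrophages 13.2%, 28.3%, 7.03% and 22.0%. An unnamed cluster whose leading genes include Wfdc18, Aqp5 and Lcn2, which epithelial cells express, held a further 24.4%, 1.02%, 28.6% and 0.123%. Which class held most with vehicle and anti-PD1 therefore depends on whether that cluster is counted with the tumor epithelial cells.

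Tumor epithelial cells were at 27.5 CPM with vehicle, 15 with IACS-70654, 33.4 with anti-PD1 and 19.7 with the combination. Both conditions with IACS-70654 lay below both without it. The ratio to vehicle was 0.545 for IACS-70654 (95% counting interval 0.416 to 0.718), 1.21 for anti-PD1 (0.908 to 1.63) and 0.714 for the combination (0.558 to 0.924), and the combination stood at 0.589 of anti-PD1 (0.478 to 0.729). The summed fibroblast list in these cells moved with Thbs1, at 222, 42.3, 284 and 58.5 CPM in the same order, and its part in the result was not tested. In each of the 3 larger clusters of these cells both conditions with IACS-70654 again lay below both without it. The cluster led by Krt8 and Krt18 had 56.5, 25.8, 57.0 and 38.4 CPM with vehicle, IACS-70654, anti-PD1 and the combination. That led by Auts2 had 27.5, 14.4, 29.7 and 12.8 CPM, and that led by Ptn and Mfge8 had 13.6, 6.97, 28.2 and 8.47 CPM. A Krt14 cluster was seen only with IACS-70654 (33 cells, 79.8 CPM) and the combination (56 cells, 66.7 CPM), and vehicle and anti-PD1 had 0 cells of it. An unnamed cluster led by Alkal2, Igfbp5 and Wfdc18 had 32.3 CPM with vehicle and 35.1 with anti-PD1, from 203 and 256 cells. It had only 10 and 26 cells with IACS-70654 and the combination, at 30.5 CPM (6 UMIs) and 1.95 CPM (1 UMI).

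Tumor monocytes showed the same order, at 45.4 CPM with vehicle, 26.4 with IACS-70654, 51.3 with anti-PD1 and 30.2 with the combination. The ratio to vehicle was 0.580 for IACS-70654 (95% counting interval 0.395 to 0.871), 1.13 for anti-PD1 (0.724 to 1.78) and 0.664 for the combination (0.458 to 0.987). The combination stood at 0.589 of anti-PD1 (0.425 to 0.826). Their macrophage list summed to 24709, 33713, 23711 and 35177 CPM, higher in both conditions with IACS-70654, and their fibroblast list to 13.9, 8.06, 5.92 and 7.39 CPM. Macrophages themselves had 12.5, 9.83, 12 and 12 CPM, and their thinned shares of 2.05% to 2.55% lay partly within the T or NK cell range. With 1 library per condition, none of these ratios can be set against a spread between replicates.

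TANs held few Thbs1 UMIs, though their level with IACS-70654 was near that of the monocytes in the same tumor. They had 3, 10, 1 and 1 UMIs in 470, 253, 558 and 311 cells, or 4.79 CPM with vehicle, 23.6 with IACS-70654, 1.21 with anti-PD1 and 2.40 with the combination. The ratio of IACS-70654 to vehicle was 4.93, with a counting interval from 1.27 to 27.9. The macrophage list summed to 5792 CPM in vehicle TANs, 12227 in IACS-70654, 3698 in anti-PD1 and 5222 in combination TANs, so its highest value stood in the same library as that of Thbs1, and its part was not tested. TANs were shallow, with a median of 1202 to 1353 UMIs per cell, and the unthinned share with a Thbs1 UMI was 0.638%, 3.16%, 0.179% and 0.322%.

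The other thrombospondins had few counts in BM, and whether they share the pattern of Thbs1 was not tested. Thbs2 had 3 UMIs in all CD45+ cells, Thbs3 had 169, Thbs4 had 146 and Comp (thrombospondin 5) had 38, and 0 of these 4 genes had counts enough to be tested in mature neutrophils or monocytes. Of the 146 Thbs4 UMIs, 138 came from neutrophils. In tumors, fibroblasts had the highest level of Thbs2 (529 CPM with IACS-70654), of Thbs3 (79.9 CPM with IACS-70654) and of Thbs4 (194 CPM with anti-PD1).

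Genes around TSP-1 were examined in 5 lists, in mature neutrophils and in monocytes of CD45+ BM. Of the genes tested in mature neutrophils, 8.04% were called for vehicle against WT (4.24% higher and 3.81% lower), 18.7% for IACS-70654 against vehicle (10.1% higher and 8.61% lower) and 19.6% for IACS-70654 against WT (8.99% higher and 10.6% lower). The 3 comparisons share groups, so their values are given side by side and not as separate evidence. The median log2 change over all genes was -0.02, 0.02 and 0.03 in these comparisons. In monocytes 0.529% of genes rose and 0.403% fell with vehicle against WT, 2.5% rose and 3.35% fell with IACS-70654 against vehicle, and 2.46% rose and 3.32% fell with IACS-70654 against WT.

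**Figure D5:**
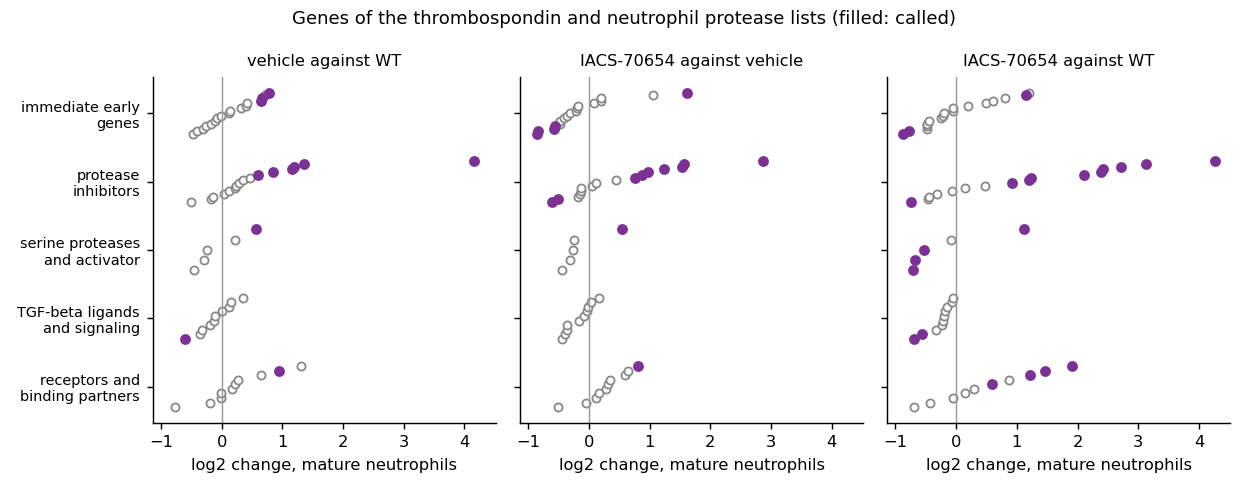
Log2 change of each tested member of the 5 lists in mature neutrophils of CD45+ BM, for 3 comparisons; filled points are called by edgeR at the thresholds given in the text. Protease inhibitors spread widest, up to 4.26 for Wfdc17, and the TGF-β genes called lie between -0.56 and -0.69.

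Receptors and binding partners of TSP-1 were few in mature neutrophils, where 10 of 17 could be tested. With vehicle against WT 1 rose and 0 fell, with IACS-70654 against vehicle 1 rose and 0 fell, and with IACS-70654 against WT 4 rose and 0 fell, at list medians of 0.20, 0.30 and 0.44. Cd47, the receptor that also signals to phagocytes through SIRPα, was at 203 and 208 CPM in WT, 235 and 224 CPM in vehicle and 325 and 326 CPM in IACS-70654. Its rise over WT was 0.59 (SE 0.06, adjusted p = 1.59e-14, edgeR), and its steps of 0.27 and 0.32 were under the size threshold. Itga4, an integrin chain, rose in vehicle by 0.94 on the log2 scale, from 38.8 and 43.1 CPM to 74.7 and 70.2 CPM. Itgb1, its partner chain, rose by 0.82 with IACS-70654 against vehicle, and Itgb1 and Itga4 stood 1.46 and 1.22 above WT with IACS-70654. Scarb1, a scavenger receptor related to CD36, was also called against WT, at 1.94 and 0.496 CPM in WT, 1.71 and 3.73 CPM in vehicle and 4.94 and 4.87 CPM in IACS-70654. It passed the filter on low counts only with the IACS-70654 libraries, so its call is no support for a rise of the list. Cd36 itself was at most 0.496 CPM and Lrp1 at most 1.80 CPM in mature neutrophils, too low to test. Calr, which encodes calreticulin, had log2 differences of 0.18, 0.11 and 0.29 and was not called.

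In monocytes, 12 of the 17 receptors and partners were tested. With vehicle against WT 0 rose and 0 fell, with IACS-70654 against vehicle 2 fell and 0 rose, and with IACS-70654 against WT 1 fell and 0 rose. The list medians were -0.03, 0.02 and -0.01. Fn1, the matrix protein fibronectin, was at 1232 and 1182 CPM in WT, 1077 and 1129 CPM in vehicle and 527 and 531 CPM in IACS-70654, and fell by 1.05 against vehicle (SE 0.035, adjusted p = 6.45e-19, edgeR). Lrp1, which takes up TSP-1, fell by 0.55 against vehicle, from 102 and 99.5 CPM to 71.1 and 66.4 CPM. Cd47 differed by at most 0.03 in size on the log2 scale over the 3 comparisons, and Calr had differences of 0.27, -0.18 and 0.09. Cd36 was at most 2.84 CPM.

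TSP-1 can activate TGF-β. Of 21 genes of its ligands, activation and signaling 10 were tested in mature neutrophils, and with vehicle against WT 1 fell, with IACS-70654 against vehicle 0 were called and with IACS-70654 against WT 2 fell, at medians of -0.11, -0.12 and -0.21. Smad3, a transducer of the signal, fell in vehicle by 0.61 on the log2 scale, from 64.9 and 54.6 CPM to 32.5 and 38.8 CPM. It was also 0.69 below WT with IACS-70654, at 42.9 and 35.4 CPM. Tgfbr1, a receptor chain, fell by 0.56 with IACS-70654 against WT. Tgfb1, the ligand, was at 44.1 and 39.7 CPM in WT, 33.1 and 29.2 CPM in vehicle and 32.6 and 37.3 CPM in IACS-70654, with no call. In monocytes 12 were tested, and 1 rose with vehicle against WT, 0 were called with IACS-70654 against vehicle and 4 rose with IACS-70654 against WT, at medians of 0.06, 0.11 and 0.19. Ski and Skil, both repressors of the signal, rose by 0.70 and 0.53 against WT with IACS-70654, Smad7, an inhibitor, by 0.67 and Tgfbr1 by 0.58, and Ski also rose with vehicle by 0.62. Tgfb1 in monocytes had differences of -0.01, 0.15 and 0.14 and was not called.

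The neutrophil serine proteases, which include enzymes that cleave TSP-1, are made mainly in pro/preNeu. All 5 members, which include the activator Ctsc, were tested in mature neutrophils. With vehicle against WT 1 rose and 0 fell, with IACS-70654 against vehicle 1 rose and 0 fell, and with IACS-70654 against WT 1 rose and 3 fell, at medians of -0.24, -0.27 and -0.54. Elane, which encodes neutrophil elastase, was at 109 and 115 CPM in WT, 76.4 and 74.4 CPM in vehicle and 66.9 and 75.3 CPM in IACS-70654. It fell by 0.72 with IACS-70654 against WT, Ctsg (cathepsin G) by 0.68 and Prtn3 (proteinase 3) by 0.54. Against vehicle the differences were -0.27, -0.44 and -0.24, under the size threshold. Ctsc rose by 0.57 with vehicle, by 0.55 with IACS-70654 against vehicle and by 1.12 against WT. In monocytes none was called with vehicle against WT (0 rose, 0 fell), while 2 rose with IACS-70654 against vehicle and 3 against WT, at medians of 0.21, 0.45 and 0.87. Elane there was at 748 and 889 CPM in WT, 874 and 916 CPM in vehicle and 2125 and 2149 CPM in IACS-70654, a rise of 1.27 against vehicle (SE 0.046, adjusted p = 3.09e-18, edgeR). Prss57 rose by 0.80 against vehicle, and Prss57 and Prtn3 rose by 0.96 and 0.87 against WT. Ctsg in monocytes had differences of 0.21, 0.20 and 0.40, with no call. The summed neutrophil list was also highest in these IACS-70654 monocytes, as given above, and its part was not tested.

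Protease inhibitors held the single largest changes among the listed genes of mature neutrophils. Of 24 listed, 16 were tested in mature neutrophils, and with vehicle against WT 6 rose and 0 fell, with IACS-70654 against vehicle 7 rose and 2 fell, and with IACS-70654 against WT 9 rose and 1 fell, at medians of 0.32, 0.28 and 1.06. Wfdc17, a secreted inhibitor of the WAP family, was at 236 and 216 CPM in WT, 3662 and 3717 CPM in vehicle and 4339 and 4751 CPM in IACS-70654, a rise of 4.15 with vehicle (SE 0.046, adjusted p = 3.82e-87, edgeR). With IACS-70654 it stayed at the vehicle level or above. Of the stefins, inhibitors of cysteine cathepsins, several rose in both steps. Stfa2 rose by 1.19 with vehicle and by 1.53 with IACS-70654 against vehicle, Cstdc5 by 0.85 and 1.57, Cstdc6 by 1.16 and 1.24, and Stfa1 by 1.35 and 0.75. Stfa3 was at 455 and 399 CPM in WT, 444 and 483 CPM in vehicle and 3989.6 and 3801 CPM in IACS-70654, a rise of 2.87 against vehicle. These stefins are near-identical copies of one another, and how reads were split between them is uncertain. Slpi, an inhibitor of elastase and cathepsin G, fell by 0.61 with IACS-70654 against vehicle and Timp2, an inhibitor of matrix metalloproteases, by 0.51. Serpinb1a, an intracellular inhibitor of the neutrophil proteases, had differences of 0.12, -0.18 and -0.07 and was not called.

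In monocytes 17 inhibitors were tested, and 4 rose and 0 fell with vehicle against WT, 6 rose and 3 fell with IACS-70654 against vehicle, and 7 rose and 3 fell with IACS-70654 against WT, at medians of 0.40, 0.35 and 0.46. Cstdc6, Stfa2, Wfdc21 and Cstdc5 rose with vehicle by 1.63, 1.22, 0.65 and 0.57. Against vehicle, Stfa3 rose by 1.66, Cstdc5 by 1.44, Stfa2l1 by 0.89 and Stfa2 by 0.74 with IACS-70654, whereas Cst7, Slpi and Timp2 fell by 1.33, 1.23 and 0.72. Serpinb1a had differences of 0.09, 0.08 and 0.17 there, with no call.

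Immediate early genes, a list that also marks handling of the tissue, had calls in both directions with IACS-70654. In mature neutrophils 17 of 23 were tested, and 3 rose with vehicle against WT (Junb by 0.79, Ier3 by 0.67 and Egr1 by 0.64). With IACS-70654 against vehicle 1 rose (Jun by 1.62) and 4 fell (Egr1 by 0.85, Junb by 0.84, Zfp36 by 0.57 and Jund by 0.56). With IACS-70654 against WT 1 rose (Jun by 1.15) and 2 fell (Klf6 by 0.88 and Btg2 by 0.78). Jun, a subunit of AP-1, was at 62.0 and 52.6 CPM in WT, 34.2 and 40.8 CPM in vehicle and 137 and 129.6 CPM in IACS-70654, lowest in vehicle. In monocytes 20 were tested, and with vehicle against WT 2 rose (Ier3 by 1.18 and Egr1 by 1.00) and 2 fell (Atf3 by 0.57 and Dusp1 by 0.55). With IACS-70654 against vehicle 1 fell there (Egr1 by 0.61), and against WT 1 rose (Ier3 by 1.41).

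Likeness to Thbs1 was measured as Pearson's r of log2(CPM + 1) over sums that share libraries and neutrophil stages, and is a description. Over the 30 stage-by-library sums of CD45+ neutrophils, among 4573 genes with a mean of at least 20 CPM, the 8 most like genes were 4930402H24Rik (r = 0.856), Wnk1 (0.845), Rp2 (0.845), Limd2 (0.822), Vti1a (0.810), Rilpl2 (0.803), Cyb5a (0.802) and Glcci1 (0.80). Their fall in vehicle was far smaller than that of Thbs1. Limd2 in all neutrophils was at 265 and 257 CPM in WT, 200.1 and 195 CPM in vehicle and 257 and 259 CPM in IACS-70654. 4930402H24Rik was at 48.8 and 48.8 CPM, 35.8 and 35.5 CPM, and 54.5 and 55.4 CPM. Over 135 class-by-library sums of all 16 libraries, among 6831 genes, the most like included Myl12a (0.685), Ifitm3 (0.657), Wwtr1 (0.638), Hcfc1r1 (0.633), Gadd45g (0.618), Tmem9b (0.617) and Itm2b (0.611).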

How the data were processed

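The authors made the deposited count matrices with Cell Ranger (7.1.0 for tumors and 7.2.0 for BM, per the file headers; mm10 and Seurat are named in the submitters' processing notes): 3′ reads were aligned, UMIs were counted per gene and cell, and cells were assigned to samples by CellPlex tags. The counts were used as deposited. The members and lists were chosen with earlier results of these data known.

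Kept cells had over 200 genes, under 6000 genes and no more than 10% mitochondrial UMIs, which is 1 reading of the study's filter. Cells of each sort were clustered without integration (2000 variable genes, 30 components, 20 neighbors, Leiden at resolution 1; 0.8 for neutrophils, with genes scaled within each library) with leidenalg 0.10.2, scanpy 1.11.5 (doublet scores), scikit-learn 1.9.0, pandas 2.3.3, scipy 1.17.1, numpy 2.4.6 and matplotlib 3.10.9 under Python 3.11.15 and named by marker lists. Doublets were left in, and an alternative removed them: the caller marked at least 0.5% of cells in 8 libraries, and in the other 8 the top 5% of scores were removed. Plain text names for stages are those of marker lists, which differ from the authors' annotation.

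UMIs were summed per class and library where each library had at least 20 cells and were tested in R 4.3.3 with edgeR 4.0.16 (limma 3.58.1; filterByExpr, TMM, quasi-likelihood test). Each fit held the 6 libraries of 1 sort, and p-values were adjusted by Benjamini-Hochberg over every gene tested. The scripts were tested on simulated data. The study's per-cell test was not used, since cells are not replicates. Alternatives were DESeq2 1.42.0, no low-count filter, other scaling, a replicate block, each replicate left out, other thinning depths, stages set per cell, and removal of doublets or of cells with platelet genes; single clusters and monocytes low in neutrophil markers were added after seeing the data. Named genes are Thbs1, Cd47, Cd36, Lrp1, Calr, Tgfb1, Elane, Ctsg, Prtn3 and Serpinb1a, at most 4 called members per list, direction and comparison by size, and the 8 most like genes of each likeness ranking, of which 1 is not reported here. Single clusters were described after their values were seen. Of the 24 inhibitors listed, BC100530 was not matched in the files. Of each tumor class the Poisson interval and of each ratio the conditional binomial interval is exact. No sequence of Thbs1 is printed.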

Additional observations from a re-analysis of the deposited data

Results flagged for a closer look

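With IACS-70654 against vehicle, Thbs1 fell in megakaryocyte progenitors by 1.74 on the log2 scale (log2 change -1.74), with both IACS-70654 libraries below both vehicle libraries. In CD45+ neutrophils both IACS-70654 libraries lay above both vehicle libraries, at a log2 ratio of 4.39. The opposite direction in the 2 classes is why this was singled out. The difference between the classes was not tested, and Thbs1 was chosen for its values in neutrophils.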

How the results depend on the processing

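Of 485 alternative values over 65 results, 448 were counted as unchanged. For tested Thbs1 values this means the same direction and side of the threshold. For BM neutrophils it means the same direction and a move within the replicate spread. For tumors, which have no replicates, it means a value within the counting interval, and for counts of list members a change within a set factor. Results that were not called count as unchanged if they stay uncalled in the same direction. Many of the results are the CD45+ neutrophil values by which Thbs1 was chosen, and all alternatives use the same libraries. The tally therefore describes the processing only and lends no support to a result. In monocytes, the deeper of the 2 clusters alone gave -0.70 for vehicle against WT, 0.27 for IACS-70654 against vehicle and -0.43 for IACS-70654 against WT, none called. Without the low-count filter, Thbs1 was called in plasmacytoid dendritic cells at 3.15 against vehicle and 2.26 against WT, which lends no support, since its counts there came mostly from the IACS-70654 libraries. HSCs or MPPs without cells with a Pf4 or Ppbp UMI gave -0.070 for IACS-70654 against vehicle. For IACS-70654 against WT in neutrophils, TMM-scaled totals gave -0.22, and stages set per cell gave -0.0089 in immature cells. The log2 ratio of shares became -3.64 for vehicle against WT, 3.87 for IACS-70654 against vehicle and 0.23 for IACS-70654 against WT without thinning, and the last was -0.18 at 500 UMIs and -0.55 for cells with at least 2 UMIs. DESeq2 called 2 list members in monocytes for vehicle against WT and 9 for IACS-70654 against vehicle, against 9 and 14 by edgeR. The share of all genes called by DESeq2 is not given, so these counts are not read as a result about the lists. In tumor fibroblasts without cells removed as doublets, the log2 ratio to vehicle was 1.31 for anti-PD1 and 0.14 for the combination. These ratios compare libraries that were trimmed unequally. The vehicle library lost the 13 cells marked by the caller. By top score, the anti-PD1 library lost 104 cells (7 marked by the caller) and the combination library lost 265 (3 marked). In macrophages without Pf4 or Ppbp cells the log2 ratio to vehicle was 0.23 for anti-PD1 and 0.060 for the combination. The unthinned shares and those at 500 UMIs differ in depth from the main shares, while those with at least 2 UMIs do not. The cause of these shifts was not tested.

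Leaving out 1 replicate in turn gave, for vehicle against WT, IACS-70654 against vehicle and IACS-70654 against WT, monocyte values of -1.32 to -0.90, -0.39 to 0.025 and -1.45 to -1.13, where the change of sign came without vehicle replicate 2 (0.025). Plasmacytoid dendritic cells gave -4.64 to 0.10 (0.10 without vehicle replicate 2), 2.17 to 6.90 and 1.99 to 2.55, megakaryocyte progenitors 0.23 to 0.76, -2.0 to -1.53 and -1.51 to -0.99, and HSCs or MPPs 0.13 to 0.38, 0.09 to 0.40 and 0.32 to 0.66. Neutrophils gave -4.74 to -4.32, 4.19 to 4.61 and -0.15 to -0.11. List members called ran from 11 to 13, 15 to 17 and 21 to 26 in mature neutrophils and from 4 (without vehicle replicate 1) to 11, 10 to 15 and 15 to 20 in monocytes.

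The replicate numbers did not pair the samples: correlations of deviations ran from -0.04 to 0.04. With the replicate block, Thbs1 changed by -1.09, -0.20 and -1.30 in monocytes and by 0.46, -1.75 and -1.29 in megakaryocyte progenitors. With it, 12, 16 and 23 list members were called in mature neutrophils and 10, 14 and 19 in monocytes. The shares of all genes called with the block are not given, so these counts are not read as a result about the lists. The block changed no call of Thbs1. DESeq2 gave no adjusted p for 5 of the Thbs1 comparisons, among them monocytes of vehicle against WT (unadjusted p = 1.24e-06), which stay without a call there. Counts limit pDCs, TANs and the smaller CD45+ classes, which held few Thbs1 UMIs per library, and the tumors have no replicates.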

Other observations

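Within tumor macrophages Thbs1 differed between clusters. A cluster led by the interferon-response genes Cxcl10, Ifit3 and Ifit2 was highest, at 49.4 CPM with vehicle, 23.7 with IACS-70654, 60.3 with anti-PD1 and 34.4 with the combination, from 10, 49, 17 and 66 UMIs. The cluster led by Apoe, Ms4a7 and the complement genes C1qa, C1qb and C1qc was lower, at 9.32, 5.67, 4.47 and 8.39 CPM, and the cycling cluster led by Pclaf and Birc5 stood at 4.89 to 5.69 CPM. A cluster led by Ccl8, F13a1 and Folr2 had 19.9 CPM with vehicle (26 UMIs) and 4.75, 9.72 and 4.83 CPM in the other conditions (7, 4 and 5 UMIs).

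Some further values rest on few UMIs. In tumor plasmacytoid dendritic cells, 14 UMIs of the vehicle library gave 124 CPM, against 7.81 to 10.7 CPM from 1 to 3 UMIs in the other 3 libraries. In c-Kit+ lymphoid-primed progenitors Thbs1 had 1 and 0 UMIs in WT, 4 and 0 UMIs in vehicle and 13 and 6 UMIs with IACS-70654, or 3.82 and 2.91 CPM in the last group.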
